A study of Drosophila melanogaster with 30 samples.

Results

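The Dpr and DIP genes of the fruit fly Drosophila melanogaster encode cell surface proteins of the immunoglobulin superfamily with which neurons recognise each other. The members described here were the gene rows whose identifier maps to a FlyBase symbol made of dpr and a number or of DIP and a Greek letter. They came to 31 genes, 20 Dpr and 11 DIP, of 17807 gene rows in each count table, of which 17710 had a symbol. On chromosome arms 2L, 2R, 3L, 3R and X lay 9, 5, 4, 8 and 5 of them. All 31 passed the filter on low counts and were among the 14888 genes tested.

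A Dpr protein on the surface of a neuron binds particular DIP proteins on another, and such pairs help developing neurons to choose synaptic partners, to settle in the right layer and to survive. Different neuron types carry different sets of these genes, so the set works as a surface code in the optic lobe, where photoreceptors and their target neurons meet. In that system Dpr11 on a subset of inner photoreceptors of type R7 pairs with DIP-gamma on Dm8 neurons of the medulla, Dpr6 and Dpr10 pair with DIP-alpha, and Dpr12 pairs with DIP-delta in other brain circuits.

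Nuclear RNA was sequenced from nuclei of outer photoreceptors, the cells of the eye that express the rhodopsin Rh1, of male flies at day 30 after eclosion. There were 30 libraries, 3 labelled as biological replicates for each of 10 targets of a short hairpin RNA (shRNA). The targets were Spt5, a subunit of an elongation factor of RNA polymerase II, dom (domino), a chromatin remodelling ATPase, Spt6, TH1, Cdk12, Taf1, Top1, Trl and cnc. LexA, a bacterial gene that flies lack, was the control target. Flies of all groups carried Rh1-Gal4, which drives the shRNA in outer photoreceptors, and Rh1-GFPKASH, a tag on the nuclear envelope by which nuclei were enriched with an antibody. The series is titled for early retinal degeneration after knockdown of Spt5 and of dom, and the values below show how the Dpr and DIP genes differ between its groups. All comparisons with LexA share the same 3 LexA libraries, so their values are not independent of each other.

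Libraries held 4064250 to 18024440 reads counted in genes, of which 3977 to 30288 were in the 31 members. No targeted gene was called lower than in LexA, so the knockdowns could not be checked from these counts. The outer photoreceptor marker ninaE, the gene of Rh1, was between 7818 and 31477 CPM (read counts scaled to library size) in every library. Markers of other cells were present as well, among them repo, a glial transcription factor, at 12.2 to 80.6 CPM, and VGAT, a transporter of inhibitory neurons, at 6.31 to 46.7 CPM. In nuclear RNA of such mixed samples, more nuclei of a cell type and more RNA per nucleus cannot be told apart. Spt5 replicate 3 stood apart from its group, as the values below show. The Spt5 and Cdk12 libraries also held more reads aligned to several places, 59.2 to 94.5 and 72.9 to 82.6 per 100 gene counts, against 12.8 to 33.0 in the other 24 libraries.

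Levels of the members in LexA spanned a wide range. Expressed as CPM per kilobase of exon, dpr21 averaged 95.1 ± 22.2, dpr11 69.7 ± 20.3 and dpr8 20.5 ± 6.20 (SD, n = 3), and dpr12 followed at 10.1 ± 2.23. The other 27 members lay between 8.61 for dpr19 and 0.503 for DIP-iota. In this order, neighbouring levels differed by more than the sum of their SDs after dpr11, after dpr8 and between DIP-zeta, at 1.49 ± 0.24, and DIP-iota. All other neighbours in the order did not differ beyond their spread. DIP-alpha at 4.71 ± 1.32 and DIP-gamma at 4.50 ± 1.24 were the highest of the DIP genes, and 11 Dpr genes ranked above them. These ranks depend on the exon length, which is 993 bp for dpr21, and the feature type of the counting was not given. In plain CPM dpr21 averaged 94.5 ± 22.1 in LexA, beside 324 ± 94.2 for dpr11 and 101 ± 30.7 for dpr8. DIP-iota rested on 0 to 23 reads per library and was at 0 in Spt5 replicate 2 and Spt6 replicate 3, where a count of 0 allows up to 0.398 and 0.189 CPM before TMM scaling (3 reads, counting error only). Nothing firm can be said about its differences at this depth.

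**Figure D1:**
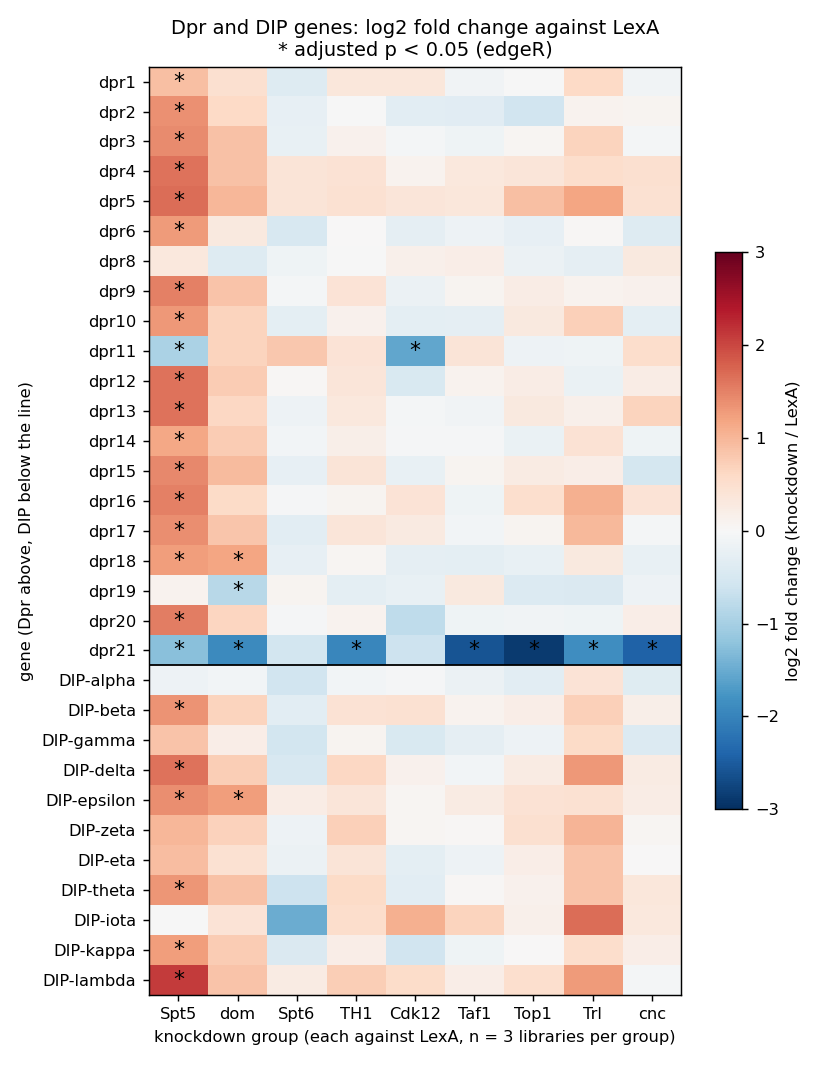
Log2 fold change of each of the 31 members (vertical axis, Dpr above the line and DIP below) in the 9 knockdown groups against LexA (horizontal axis, 3 libraries per group). Colour gives the log2 fold change and an asterisk an adjusted p under 0.05. The Spt5 column holds 22 members called higher, and dpr21 is blue in all 9 columns and called in 7.

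In Spt5 against LexA most Dpr and DIP genes were higher and a pair of Dpr genes lower. Of the 31 members 22 rose and 2 fell at an adjusted p under 0.05 in edgeR's quasi-likelihood test, where 16.5% of all tested genes were called, 11% of them higher and 5.42% lower. The members' median log2 fold change was 1.33, against 0.05 over all tested genes. Among the 20 Dpr genes 16 rose and 2 fell (median 1.37), and among the 11 DIP genes 6 rose and 0 fell (median 1.25, 9 at an unadjusted p under 0.05). Of all 14888 tested genes 4069 had an unadjusted p under 0.05. Of all 31 members, 27, 25 and 8 lay above every LexA library in Spt5 replicates 1, 2 and 3. All 3 Spt5 libraries lay above every LexA library in 7 members and below in 2, as they did in 10.0% and 12.3% of all tested genes. Among the 22 genes called higher, a set chosen by these same values, replicates 1 and 2 lay above every LexA library for all 22 and replicate 3 for 6.

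The Dpr genes that rose began with dpr5, at 17.2, 15.5 and 5.29 CPM in Spt5 against 4.15, 4.78 and 2.96 CPM in LexA (1.67, SE 0.36, adjusted p 0.00395, where the first number in brackets is here and below the log2 fold change). All 3 Spt5 libraries of dpr5 lay above the LexA libraries, although replicate 3 only just. Its neighbour dpr4 was at 74.6, 60.5 and 18.2 CPM in Spt5 against 21.7, 13.3 and 14.8 CPM in LexA (1.63, SE 0.34, adjusted p 0.00389), and here replicate 3 fell within the LexA range. Since 15.7% of the exon length of dpr4 overlaps an antisense RNA gene and the strand setting of the counting was not given, reads of this pair cannot be told apart. dpr12, whose protein binds DIP-delta, was at 219.8, 186 and 36.2 CPM in Spt5 against 57.6, 48.2 and 36.7 CPM in LexA (1.63, SE 0.39, adjusted p 0.00612). Replicates 1 and 2 of dpr12 were far above LexA, and replicate 3 was below all 3 LexA libraries. dpr13 was at 59.1, 55.4 and 14.2 CPM in Spt5 against 13.7, 17.7 and 10.5 CPM in LexA (1.62, SE 0.41, adjusted p 0.00773). dpr20 was at 57.5, 46.7 and 9.07 CPM in Spt5 against 14.98, 16.7 and 7.10 CPM in LexA (1.55, SE 0.42, adjusted p 0.0119). Both had 2 high libraries and replicate 3 within the range of LexA. dpr9, whose protein is a partner of DIP-beta, was at 129, 118 and 30.5 CPM in Spt5 against 36.1, 36.5 and 24.7 CPM in LexA (1.51, SE 0.35, adjusted p 0.00494), with the same split.

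Increases of the same order were found for further Dpr genes. dpr16 was at 26.7, 20.5 and 8.13 CPM in Spt5 against 5.78, 5.49 and 8.09 CPM in LexA (1.52, SE 0.38, adjusted p 0.00702), and replicate 3 was level with the highest LexA library. dpr17 was at 57.1, 48.7 and 18.9 CPM in Spt5 against 17.2, 14.9 and 15.8 CPM in LexA (1.38, SE 0.39, adjusted p 0.0150), and dpr15, its neighbour on 3R, at 37.5, 26.8 and 6.99 CPM in Spt5 against 7.94, 11.2 and 7.30 CPM in LexA (1.43, SE 0.40, adjusted p 0.0134). The Spt5 libraries of dpr17 all lay above LexA and those of dpr15 did not. dpr3 was at 60.1, 60.4 and 17.9 CPM in Spt5 against 20.8, 17.5 and 13.4 CPM in LexA (1.42, SE 0.40, adjusted p 0.0153). dpr2 was at 23.3, 28.2 and 6.62 CPM in Spt5 against 9.39, 7.79 and 5.33 CPM in LexA (1.36, SE 0.39, adjusted p 0.0157). In both, replicate 3 was inside the LexA range. The remaining Dpr genes that rose were dpr10 (1.30, SE 0.38, adjusted p 0.0180), dpr6 (1.27, SE 0.39, adjusted p 0.0235), dpr18 (1.25, SE 0.33, adjusted p 0.00991), dpr14 (1.15, SE 0.29, adjusted p 0.00833) and dpr1 (0.90, SE 0.32, adjusted p 0.0497). dpr1 is the founding member of the family, named for a defect in the proboscis response of flies to salt. Its call was the closest to the threshold, at 55.9, 39.9 and 29.7 CPM in Spt5 against 25.6, 23.9 and 17.8 CPM in LexA, with no overlap, and it was not called with the size factors of DESeq2 (0.83).

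Among the receptors on the DIP side, DIP-lambda had the largest increase of all members, at 39.6, 35.8 and 10.2 CPM in Spt5 against 7.58, 6.20 and 6.11 CPM in LexA (2.10, SE 0.50, adjusted p 0.00576). DIP-delta was at 39.9, 35.5 and 12.5 CPM in Spt5 against 7.76, 12.4 and 8.09 CPM in LexA (1.64, SE 0.40, adjusted p 0.00700). Both had every Spt5 library above every LexA library, DIP-delta by a small margin. DIP-epsilon was at 36.8, 25.8 and 9.83 CPM in Spt5 against 10.3, 8.50 and 8.88 CPM in LexA (1.39, SE 0.33, adjusted p 0.00564). DIP-beta was at 40.8, 28.7 and 12.2 CPM in Spt5 against 13.4, 11.2 and 7.69 CPM in LexA (1.34, SE 0.32, adjusted p 0.00577). Replicate 3 of both lay between LexA libraries, as it did for DIP-kappa (1.25, SE 0.35, adjusted p 0.0138) and DIP-theta (1.33, SE 0.46, adjusted p 0.0466), 12.6% of whose exon length overlaps a long noncoding RNA gene. DIP-zeta had no overlap between the groups but missed the threshold (1.01, SE 0.36, adjusted p 0.0569). DIP-eta (0.93, SE 0.45, adjusted p 0.180) and DIP-gamma (0.85, SE 0.37, adjusted p 0.123) were not called either.

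**Figure D2:**
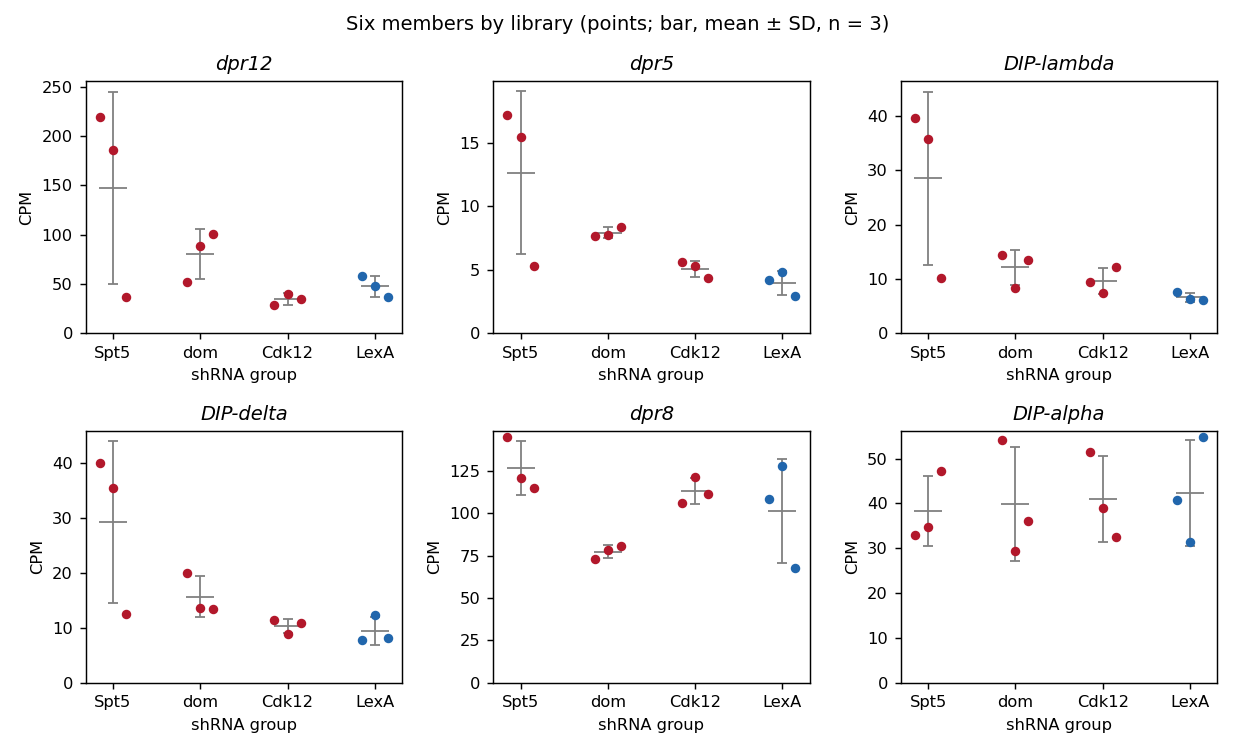
CPM of 6 members in Spt5, dom, Cdk12 and LexA libraries (points are replicates, bars mean ± SD, n = 3). For dpr12, dpr5, DIP-lambda and DIP-delta the first and second Spt5 libraries stand high and replicate 3 near LexA, while dpr8 and DIP-alpha have 3 Spt5 libraries that overlap LexA.

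For 3 members with well measured levels no difference passed the test. dpr8 was at 145, 121 and 114.8 CPM in Spt5 against 108, 128 and 67.9 CPM in LexA (0.32, SE 0.17, adjusted p 0.237), dpr19 at 31.4, 24.6 and 18.3 CPM in Spt5 against 24.01, 24.8 and 20.5 CPM in LexA (0.10, SE 0.20, adjusted p 0.845). DIP-alpha was at 33.1, 34.7 and 47.2 CPM in Spt5 against 40.8, 31.4 and 54.8 CPM in LexA (-0.14, SE 0.27, adjusted p 0.845). The libraries of both groups were interleaved for these 3 genes. The plot of 6 members shows dpr8 and DIP-alpha beside 4 genes that rose. The 2 members that fell, dpr21 (-1.26, SE 0.36, adjusted p 0.0160) and dpr11 (-0.94, SE 0.29, adjusted p 0.0264), are the 2 with the highest levels per kilobase in LexA, and are described further below.

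The call count depended on single libraries. Without Spt5 replicate 3 it was 27 (25 members higher and 2 lower, median 1.70), where 24.2% of all tested genes were called. Without Spt5 replicate 1 it was 1 (dpr21, lower), where 1.58% were, and without Spt5 replicate 2 it was 7, where 3.83% were, with dpr4, dpr5, dpr16, DIP-beta, DIP-epsilon and DIP-lambda higher and dpr21 lower. Without LexA replicates 2 and 3 it was 13 and 15, where 7.02% and 12.3% were. The members' median stayed between 1.03 and 1.70 in all of these. A fit of only the 6 libraries called 0 members and 2 of 11179 genes, with a members' median of 1.32. Set against Cdk12, the group that shares the high share of multiply aligned reads, 19 members were higher in Spt5 (5.73% of tested genes were) and 0 lower, with a median of 1.34.

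Markers of other cell types moved with the members in Spt5. The members' median log2 difference from the LexA mean was 1.79, 1.61 and 0.07 in Spt5 replicates 1, 2 and 3, and that of 17 markers of other neurons 2.08, 1.80 and 0.05. The summed level of these 17 markers was 716 to 3861 CPM in Spt5 against 611 to 1007 CPM in LexA, 15 of 17 rose (median 1.55), and none was at 0 in any of these 6 libraries. The sum of the 16 markers of outer photoreceptors was 27263 to 79857 CPM in Spt5 against 94965 to 106350 CPM in LexA, 11 of 16 fell (median -1.14), and their medians in replicates 1, 2 and 3 were -2.002, -1.81 and -0.29. Markers of glia had 12 of 18 higher (median 1.11), of lamina and medulla neurons 9 higher and 1 lower of 15 (median 1.29), of pigment, cone and corneal cells 8 of 15 higher (median 1.11) and of inner photoreceptors 7 higher and 2 lower of 13 (median 1.01). Muscle markers had 0 of 16 called by edgeR (median 0.21) and fat body and hemocyte markers 6 of 15 higher (median 0.45). The part of these cell types in the increase of the members was not tested. With the share of reads outside annotated features as a covariate, 25 members were called, where 20% of all tested genes were.

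**Figure D3:**
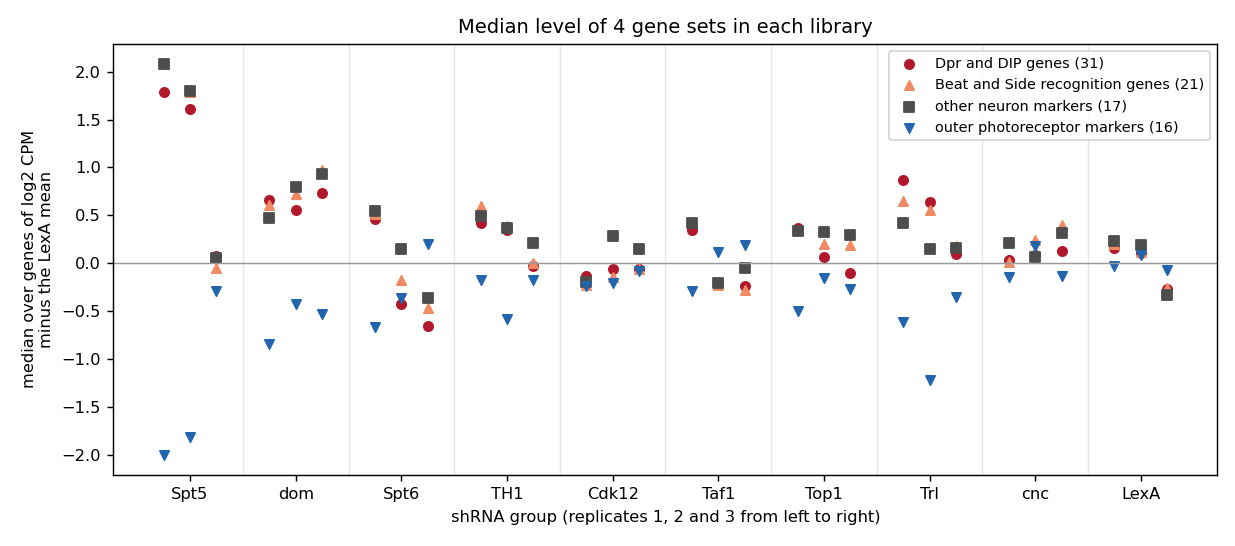
Median log2 CPM relative to the LexA mean (vertical axis) of the 31 Dpr and DIP genes, 21 Beat and Side genes, 17 markers of other neurons and 16 outer photoreceptor markers in each library (points, replicates 1 to 3 from left to right in each group). In Spt5 replicates 1 and 2 the recognition genes (1.79 and 1.61 for Dpr and DIP) and the neuron markers are high and the outer photoreceptor markers low.

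Other recognition genes were read beside the members. The Beat and Side genes form another surface code, in which Side ligands guide axons that carry Beat receptors, and 20 of 21 rose and 0 fell in Spt5 (median 1.52), led by beat-IIa (1.75, SE 0.33, adjusted p 0.00266), beat-IIIc (1.64, SE 0.31, adjusted p 0.00273) and beat-Ic (1.74, SE 0.36, adjusted p 0.00365). A list of 11 genes held relatives with immunoglobulin or leucine-rich repeat domains and, outside these classes, Nrt, the gene of a neuronal adhesion protein. Of the 11, 5 rose and 1 fell (median 0.72), with Nrt (1.27, SE 0.29, adjusted p 0.00460), kek5 (0.99, SE 0.22, adjusted p 0.00462) and klg (1.03, SE 0.26, adjusted p 0.00877) among those that rose. Of 31 genes of photoreceptor wiring and synaptic adhesion 16 rose and 3 fell (median 0.87), with Toll-7 (1.28, SE 0.27, adjusted p 0.00374), Toll-6 (1.71, SE 0.36, adjusted p 0.00380) and the neuroligin gene Nlg2 (1.59, SE 0.34, adjusted p 0.00395) foremost. The plot of set medians by library shows the Beat and Side genes close to the Dpr and DIP genes in every group, with both near the LexA mean in Spt5 replicate 3.

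In dom against LexA 27 of the 31 members had positive estimates, and few were called. Of 31 members 2 rose and 2 fell, where 4.37% of tested genes were higher and 6% lower, and the members' median was 0.68 against 0.21 over all tested genes. In 21 members all 3 dom libraries lay above every LexA library, and in 2 all lay below, as they did in 15.6% and 13.3% of all tested genes. The members' medians relative to the LexA mean were 0.66, 0.56 and 0.74 in the 3 dom libraries, so none stood apart as in Spt5.

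The members that rose in dom were dpr18 and DIP-epsilon. dpr18 was at 19.2, 20.6 and 24.04 CPM in dom against 11.01, 6.55 and 10.7 CPM in LexA (1.18, SE 0.33, adjusted p 0.0201). DIP-epsilon was at 14.8, 23.4 and 28.0 CPM in dom against 10.3, 8.50 and 8.88 CPM in LexA (1.26, SE 0.33, adjusted p 0.0130). Neither overlapped LexA, and both calls were lost without dom replicate 3 or LexA replicate 2, with log2 fold changes from 0.98 to 1.21. Those that fell were dpr21 (-1.90, SE 0.37, adjusted p 0.00119) and dpr19, at 12.4, 13.7 and 12.8 CPM in dom against 24.01, 24.8 and 20.5 CPM in LexA (-0.83, SE 0.20, adjusted p 0.00755). The dom libraries of dpr19 were close together and all below the LexA libraries. Its call was lost without dom replicate 2 (-0.75), dom replicate 3 (-0.72) or LexA replicate 2 (-0.77). Without LexA replicate 2 or dom replicate 3 dpr21 was the only member called. dpr5 (0.99, SE 0.36, adjusted p 0.0767) and dpr14 (0.76, SE 0.29, adjusted p 0.0992) came next and were not called.

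Other recognition genes in dom included some with larger changes than any member. Fas3, a homophilic adhesion protein, rose (3.59, SE 0.31, adjusted p 8.4e-09), as did the teneurin Ten-a (2.12, SE 0.24, adjusted p 8.0e-07) and Dscam1 (2.24, SE 0.31, adjusted p 2.0e-05), within a wiring list that had 5 higher and 3 lower of 31 (median 0.61). Of the Beat and Side genes 3 of 21 rose and 1 fell (median 0.76), among them side (1.77, SE 0.36, adjusted p 0.00194) and side-VII, which fell (-0.72, SE 0.16, adjusted p 0.00484). Of the 11 genes in the list of relatives and Nrt 1 rose and 3 fell (median 0.33). Markers of other neurons had 2 of 17 higher (median 0.70, sum 1090 to 1551 CPM in dom against 611 to 1007 CPM in LexA, none at 0) and those of outer photoreceptors 2 of 16 lower (median -0.59). Of 18 glial markers 2 rose and 1 fell (median 0.65), as did 1 and 1 of 15 lamina and medulla markers (median 0.71). Markers of pigment, cone and corneal cells had 1 higher and 1 lower of 15 (median 0.61), those of inner photoreceptors 1 lower of 13 (median 0.50), muscle 0 of 16 (median 0.59) and fat body 0 of 15 (median -0.06). Their part in the members' values in dom was not tested.

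Spt5 and dom were also compared directly. Of the 31 members 2 were higher in Spt5, where 3.43% of tested genes were, and 1 was lower, where 4.76% were, with a median of 0.64. dpr19 was higher in Spt5 than in dom (0.94, SE 0.20, adjusted p 0.00277), and so was dpr8, at 145, 121 and 114.8 CPM in Spt5 against 73.2, 78.7 and 80.6 CPM in dom (0.71, SE 0.17, adjusted p 0.00863). dpr11 was lower in Spt5, at 163, 116 and 227 CPM against 467, 589 and 494 CPM in dom (-1.62, SE 0.30, adjusted p 6.5e-04). The Spt5 and dom libraries of these 3 genes did not overlap. Since the genes were chosen by their calls and the share of all tested genes was not counted, this adds nothing to the calls. The call of dpr8 was lost without Spt5 replicate 1 (0.64). Without Spt5 replicate 3 the count of called members was 20, where 18.5% of all tested genes were called.

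dpr21 departed from the rest of the family, since it was lower than in LexA in every knockdown group. The gene (FBgn0260995) lies on 2R at 3066499 to 3191011 on the plus strand, spans 124513 bp and holds 993 bp of exon. It was at 77.4, 119 and 86.6 CPM in LexA, and all 27 knockdown libraries lay below the lowest of these, the highest at 71.9 CPM in Spt6 replicate 3. No other member had all 27 knockdown libraries on one side of LexA, and the share of all tested genes that did is not given here.

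The groups fell into a lower and a middle range. dpr21 was at 9.38, 12.2 and 16.8 CPM in Top1 (-2.88, SE 0.39, adjusted p 8.5e-05). It was at 25.3, 12.0 and 10.5 CPM in Taf1 (-2.60, SE 0.38, adjusted p 5.0e-04). It was at 15.3, 18.7 and 19.0 CPM in cnc (-2.42, SE 0.38, adjusted p 8.1e-04). These 3 groups had the lowest levels, with no library above 25.3 CPM. TH1 libraries stood at 28.9, 22.0 and 21.7 CPM (-1.97, SE 0.37, adjusted p 0.00954), dom at 19.7, 28.1 and 28.0 CPM, and Trl at 28.5, 20.5 and 28.9 CPM (-1.86, SE 0.37, adjusted p 0.0103). In contrast Spt6 libraries stood at 66.1, 56.6 and 71.9 CPM (-0.54, SE 0.36, adjusted p 0.787) and Cdk12 libraries at 68.6, 51.3 and 65.7 CPM (-0.61, SE 0.36, adjusted p 0.815), below all LexA libraries but not called. Spt5 was split, at 55.7 and 51.2 CPM in replicates 1 and 2 and at 11.2 CPM in replicate 3. Replicate 3 was the lowest Spt5 library here, as in most members. The position relative to LexA differed. For dpr21 replicates 1 and 2 were near Spt6 and Cdk12, below LexA, whereas in most members they lay above LexA.

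In each group where dpr21 was called lower, the share of tested genes called lower was small except in Spt5 and dom. It was 0.121% in TH1, 0.0739% in Taf1, 0.249% in Top1, 1.91% in Trl and 0.168% in cnc, and dpr21 was the only one of 31 members called in each of these 5 groups. The calls in dom, Taf1, Top1 and cnc held with any 1 library left out. That in TH1 was lost without any TH1 library (-1.87 to -2.04) or LexA replicate 2 (-1.76), that in Trl without Trl replicate 2 (-1.66) or LexA replicate 2 (-1.66), and that in Spt5 without LexA replicate 2 (-1.05). LexA replicate 2 held the highest value of dpr21 in the study.

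Against the mean of the other 8 knockdown groups in place of LexA, dpr21 was higher in Spt6 (1.39, SE 0.24, adjusted p 0.00204) and in Cdk12 (1.32, SE 0.24, adjusted p 0.00711). In Spt5 its sign then turned to higher (0.59), not called in that direction. The other 6 groups, each called lower against LexA, were not called against this mean, with -1.23 in Top1, -0.92 in Taf1, -0.72 in cnc, -0.21 in TH1, -0.13 in dom and -0.09 in Trl. Beside dpr21, Spt6 had 1 further member higher in this comparison, dpr11, where 0.504% of tested genes were higher. Cdk12 had 1 higher and 1 lower, where 0.195% and 0.202% were.

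**Figure D4:**
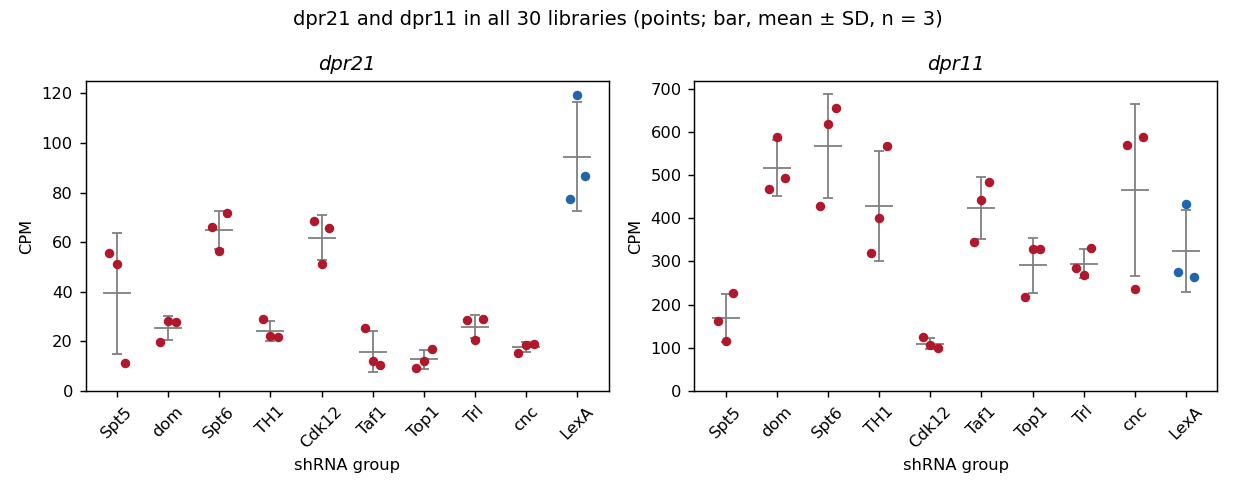
CPM of dpr21 (left) and dpr11 (right) in all 30 libraries by shRNA group (points are replicates, bars mean ± SD, n = 3, LexA in blue). For dpr21 all knockdown libraries lie below the LexA libraries, and for dpr11 Cdk12 and Spt5 lie below LexA and no library of these groups exceeds 227 CPM.

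dpr11, whose protein pairs with DIP-gamma between inner photoreceptors and medulla neurons, gave another pattern. The gene (FBgn0053202) lies on 3R at 6529169 to 6593330 on the minus strand. It was at 125, 106 and 98.5 CPM in Cdk12 against 275, 433 and 264 CPM in LexA (-1.56, SE 0.30, adjusted p 0.0118), the only member called in Cdk12, where 0.154% of tested genes were called lower. In Spt5 it was at 163, 116 and 227 CPM. No library of either group reached the lowest LexA library. The call in Cdk12 was lost without Cdk12 replicate 2 (-1.53), Cdk12 replicate 3 (-1.49) or LexA replicate 2 (-1.29), and that in Spt5 without Spt5 replicate 1 (-0.90), Spt5 replicate 2 (-0.73) or LexA replicate 2 (-0.68). Spt5 set against Cdk12 was not called (0.62, SE 0.29, adjusted p 0.233). These are the 2 groups with many multiply aligned reads, and the part of that difference in the level of dpr11 was not tested.

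dpr11 took a large share of the reads of the family. Of the summed CPM of all 31 members dpr11 made up 9.11%, 7.53% and 29.1% in Spt5 replicates 1, 2 and 3, against 29.1% to 38.3% in LexA, so that replicate 3 was at the level of LexA. It made up 14.5% to 17.8% in Cdk12, below all LexA libraries, and 37.1% to 59.7% in Spt6. The summed level of the members was 780.1 to 1786 CPM in Spt5, 1180 to 1330 CPM in dom and 677 to 704 CPM in Cdk12, against 784 to 1130 CPM in LexA. The highest library of dpr11 was Spt6 replicate 3, at 655 CPM, followed by Spt6 replicate 2 at 618 CPM. Against LexA, Spt6 had 0 members called, where 0.107% of tested genes were called, and DESeq2 also called 0. In edgeR 2 members had an unadjusted p under 0.05, dpr11 (0.81, SE 0.29, adjusted p 0.518) and DIP-alpha (-0.58, SE 0.28, adjusted p 0.674), as had 1095 of 14888 tested genes. Against the mean of the other 8 knockdown groups dpr11 was higher in Spt6 (0.91, SE 0.20, adjusted p 0.0272) and in dom (0.76, SE 0.20, adjusted p 0.0116), and lower in Cdk12 (-1.76, SE 0.25, adjusted p 6.9e-04).

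A pair of genes at the dpr11 locus was chosen after their values were seen. Their estimates had the sign of dpr11 in every knockdown group against LexA, and neither gene was called in any. The order of their replicates matched that of dpr11 in some groups and not in others. CG1137 (3R, 6558618 to 6560351) lies inside the span of dpr11 on the same strand, and CG1138 (3R, 6596625 to 6598022, same strand) lies upstream of dpr11, 3294 bp from its 5′ end. The replicates stood in the same order for all 3 genes in 3 of the 10 groups (TH1, Taf1 and LexA) and in another order for at least 1 gene in the other 7. In cnc, dpr11 was at 569.7, 235 and 589 CPM, CG1137 at 97.5, 27.0 and 89.2 CPM and CG1138 at 88.5, 16.5 and 83.3 CPM. In LexA, dpr11 was at 275, 433 and 264 CPM, CG1137 at 36.6, 81.1 and 32.9 CPM and CG1138 at 29.6, 64.3 and 21.9 CPM. In both groups replicate 2 was the odd one for all 3 genes, low in cnc and high in LexA. In Trl, dpr11 was at 284, 269 and 332 CPM, CG1137 at 34.8, 50.3 and 50.5 CPM and CG1138 at 18.9, 36.2 and 54.9 CPM, so that replicate 2 was lowest for dpr11 alone. In Spt5, CG1137 was at 24.9, 26.4 and 39.1 CPM and CG1138 at 10.1, 8.28 and 45.5 CPM, and replicate 3 was the highest for all 3 genes, while replicate 2 was the lowest for dpr11 and CG1138 and not for CG1137. In Cdk12 the genes were low together, CG1137 at 18.1, 17.0 and 14.96 CPM (-1.59 against LexA, SE 0.39, adjusted p 0.0942) and CG1138 at 15.9, 16.7 and 13.8 CPM (-1.32, SE 0.57, adjusted p 0.649), and neither was called. CG9727, on the other, 3′ side of dpr11 and on the same strand, had log2 fold changes of -0.06 in Cdk12 (SE 0.21, adjusted p 0.983) and -0.10 in Spt5 (SE 0.21, adjusted p 0.853). CG15186, nearer to dpr11 and on the plus strand, was called lower in Spt5 (-1.14, SE 0.34, adjusted p 0.0206). It was also lower in dom (-1.06, SE 0.34, adjusted p 0.0435) and not called in Cdk12 (-0.27, SE 0.33, adjusted p 0.935). The other tested genes between CG9727 and dpr11 were not called in Spt5 or Cdk12.

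**Figure D5:**
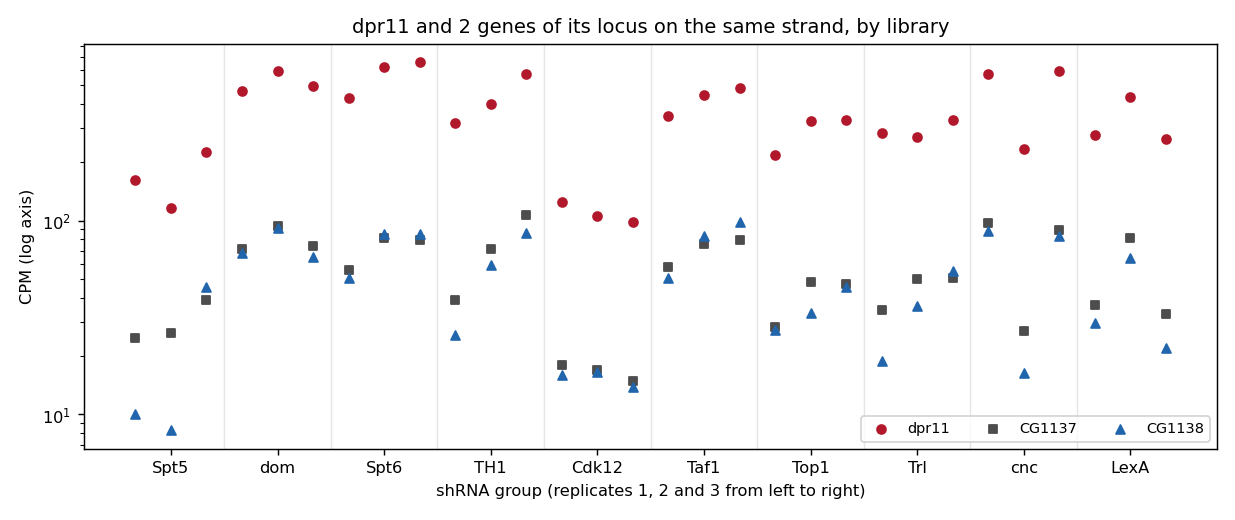
CPM (log axis) of dpr11, CG1137 and CG1138 in each library, with replicates 1 to 3 from left to right within each shRNA group. All 3 genes are low in cnc replicate 2 (235, 27.0 and 16.5 CPM) and in all 3 Cdk12 libraries, while in Trl replicate 2 dpr11 is the lowest of its group (269 CPM) and the other genes are not.

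Known binding partners were read side by side. dpr6 and dpr10, neighbours on 3L with 8093 bp between them, encode partners of DIP-alpha. dpr6 was at 121, 123 and 28.8 CPM in Spt5 and at 43.7, 44.4 and 51.4 CPM in dom, against 47.3, 43.6 and 22.1 CPM in LexA. dpr10 was at 46.0, 46.0 and 13.6 CPM in Spt5 and at 23.9, 21.5 and 23.5 CPM in dom, against 14.98, 16.3 and 11.6 CPM in LexA. Both rose in Spt5, while DIP-alpha did not pass the test (-0.14) and was at 62.1, 64.5 and 42.8 CPM in Trl, whose replicates 1 and 2 were the highest of all libraries. dpr12 and DIP-delta both rose in Spt5 (1.63 and 1.64), and replicate 3 was the low Spt5 library for both. For dpr11 and DIP-gamma the estimates differed in sign, -0.94 (called lower) and 0.85 (not called), and the difference between partners was not tested.

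Members that lie next to each other were also compared in Spt5. The 4 closest pairs were dpr6 and dpr10, DIP-eta and DIP-theta (8344 bp apart on 2L), dpr17 and dpr15 (27412 bp apart on 3R) and dpr5 and dpr4 (27531 bp apart on 3R). The log2 fold changes in Spt5 were 1.27 and 1.30 for dpr6 and dpr10, 0.93 and 1.33 for DIP-eta and DIP-theta, 1.38 and 1.43 for dpr17 and dpr15 and 1.67 and 1.63 for dpr5 and dpr4. Each pair but DIP-eta and DIP-theta was called higher for both genes, where 22 of all 31 members were called higher. Neighbouring pairs were not tested against other pairs of members. The members as a group are long genes, with a median span of 32781 bp (3738 to 379081 bp) against 2330 bp over 12575 tested protein coding genes. dpr19, which has the shortest span (3738 bp), was not called in Spt5, while DIP-lambda, which has the longest (379081 bp), had the largest increase. dpr14 and dpr20, with spans of 4583 and 4529 bp, rose.

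In Trl 0 members were called higher by edgeR, where 0.631% of tested genes were. DESeq2 called 4 higher, where 573 of 13720 tested genes were. In edgeR 9 of the 31 had an unadjusted p under 0.05 in either direction, as had 3990 of 14888 tested genes. The DIP genes had higher estimates than the Dpr genes. The median log2 fold change was 0.85 over the 11 DIP genes, all 11 of them positive, and 0.17 over the 20 Dpr genes, 14 of them positive, against 0.21 over all tested genes, and the difference between the families was not tested. In 9 of the 31 members all 3 Trl libraries lay above every LexA library, as they did in 19.96% of all tested genes. dpr5 was at 12.1, 9.37 and 5.83 CPM in Trl against 4.15, 4.78 and 2.96 CPM in LexA (1.19, SE 0.36, adjusted p 0.0635), and DIP-delta at 25.4, 25.4 and 19.2 CPM in Trl against 7.76, 12.4 and 8.09 CPM in LexA (1.30, SE 0.40, adjusted p 0.0660). Both had no overlap with LexA and missed the threshold. DESeq2 called them, together with dpr16 and DIP-zeta. With the size factors of DESeq2 in edgeR the median over all genes moved to 0.39, and the calls over all genes moved to 120 higher and 98 lower, against 94 higher and 285 lower with TMM. The members' medians in Trl replicates 1, 2 and 3 were 0.87, 0.64 and 0.09, beside 134, 172 and 101 reads outside annotated features per 100 gene counts, and a fit with that share as a covariate called 0 members and 0.437% of all tested genes. The median log2 fold change in that fit was 0.38 over the members and -0.04 over all tested genes.

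In the other groups few members were called. The members' median log2 fold change was -0.22 in Spt6, 0.33 in TH1, -0.06 in Cdk12, -0.08 in Taf1, 0.14 in Top1 and 0.07 in cnc. Over all tested genes it was -0.07, 0.02, 0.04, -0.02, -0.01 and -0.07 in the same order. Estimates were positive for 7 of the 31 members in Spt6, 26 in TH1, 12 in Cdk12, 14 in Taf1, 19 in Top1 and 18 in cnc. Apart from dpr21 and dpr11 no member was called in any of these groups. Beat and Side genes had 0 calls by edgeR in each of them and in Trl. Replicates of 1 group differed by as much as these medians. Spt6 replicates had members' medians of 0.46, -0.42 and -0.66, beside 108, 62.7 and 71.5 reads outside annotated features per 100 gene counts, and markers of other neurons had medians of 0.54, 0.15 and -0.36 in the same libraries. In Taf1 the members' medians were 0.35, -0.23 and -0.23 and those of the neuron markers 0.42, -0.20 and -0.05. Their part in the spread of the members was not tested.

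Over all 10 groups, 28 of the 31 members differed somewhere, in a single test per gene that called 29.1% of all tested genes. The smallest adjusted p-values were those of dpr21 (2.7e-06), dpr11 (2.8e-05) and dpr18 (4.5e-04). DIP-alpha (0.186), DIP-eta (0.178) and DIP-iota (0.453) were not called. Without Spt5 replicate 1 the count was 11, where 17.3% of all tested genes were called, and without Spt5 replicate 2 it was 15, where 18.4% were. Against the mean of the other 8 knockdown groups dom had 4 members higher (dpr11, dpr14, dpr18 and DIP-epsilon), where 7.36% of tested genes were, and 2 lower, where 5.59% were, dpr19 (-0.70, SE 0.16, adjusted p 0.00227) and dpr8 (-0.44, SE 0.13, adjusted p 0.0268). dpr18 (1.14, SE 0.22, adjusted p 4.1e-04), DIP-epsilon (0.84, SE 0.22, adjusted p 0.00890) and dpr19 were thus called in dom against both LexA and the other knockdowns. dpr14 (0.60, SE 0.20, adjusted p 0.0475), dpr11 and dpr8 were called in dom against the other knockdowns and not against LexA.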

How the data were processed

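Nuclear RNA of 30 libraries (10 groups of 3) was analysed. The deposited values were raw read counts, 1 table per library, which the authors made with Trimmomatic 0.39, HISAT2, the build BDGP6 and HTSeq, per the submitters' processing notes. Strandedness, feature type and annotation release of the counting are not given in the sources used here. Groups and replicate numbers came from the sample titles, because the genotype labels of 6 groups count upward over the replicates. Summary rows, which held 51.8% to 74.5% of a library's reads, and transgene rows stayed out of library sizes and tests.

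Counts were tested here with edgeR 4.0.16 in R 4.3.3 (quasi-likelihood F test, two-sided). Genes were kept by filterByExpr (min.count 10, min.total.count 15), libraries were scaled by TMM, and all 30 entered 1 fit with a mean per group. Benjamini-Hochberg adjustment ran over all 14888 tested genes of a comparison, and a gene was called under 0.05. Adjusted p-values without a named tool are from edgeR. In the fit of all 30, p-values rest on a gene's replicate spread pooled over all groups, not on that of the compared groups alone. The SE was taken as |log2 fold change| over the root of F. CPM used TMM-scaled library sizes (log2 CPM added a prior count of 2), and CPM per kilobase divide by the merged exon length in the Ensembl annotation of BDGP6, which also gave the symbols and positions. The script was tested on simulated data.

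Named were every member called in a comparison, otherwise the 3 with the smallest p, and up to 3 called genes of each other list. The members and lists were chosen with earlier results of these data known. Of 197 listed symbols 8 matched no row. Alternatives were DESeq2 1.42.0, its size factors in edgeR, no filter, the replicate number as a block, a covariate for reads outside annotated features, other references, only the 6 libraries and each library left out. One further member of the family is not reported here.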

Additional observations from a re-analysis of the deposited data

How the results depend on the processing

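Fits of only the 6 libraries, with fewer samples, called 0 members in Spt5 against LexA (24 in the fit of all 30), 9 in dom (4), 7 in Trl (1) and 1 in Spt5 against dom (3), where 0.0179%, 21.8%, 9.85% and 2.82% of all tested genes were called. Trl came to 2 with the size factors of DESeq2, 3 with the replicate block, 0 with the background covariate and 5 with DESeq2, where 1.46%, 5.1%, 0.437% and 7.26% were. Against the mean of the other 8 knockdowns the counts were 2 in Spt6, 0 in TH1, 2 in Cdk12, 0 in Top1, 3 in Trl and 0 in cnc, where 31.3% of all tested genes were called in Trl and 0.255% to 0.591% in the other 5. Leaving out 1 library gave 1 to 27 calls in Spt5, 1 to 5 in dom, 0 in Spt6, 0 to 1 in TH1 and Cdk12, 1 in Taf1, Top1 and cnc, 0 to 4 in Trl, 2 to 20 in Spt5 against dom and 11 to 30 over all groups. The share of all tested genes called then was 1.58% to 24.2% in Spt5, 4.18% to 7.84% in dom and 0.219% to 7.7% in Trl. It was 4.03% to 18.5% in Spt5 against dom, 17.3% to 36.7% over all groups and 0.058% to 0.298% in the other knockdown groups. Values that turned sign were dpr11 in Spt5 against Cdk12 (0.62) and dpr21 in Spt5 against the other 8 knockdowns (0.59), and the cause was not tested. The cause of these moves in counts was not tested. With the replicate block Spt5 had 25 calls and dom 6, where 17.8% and 11.2% of all tested genes were called. Deviations of libraries from their group means correlated with those of the same-numbered LexA library at -0.25 to 0.25. All 3 pairs were positive in Spt5 alone, and weakly so (0.01 to 0.12), and all 3 were negative in Trl (-0.25 to -0.04). The replicate numbers were taken to name samples only. Depth limits DIP-iota, with at most 23 reads per library.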
